A study of Homo sapiens with 12 samples.

Results

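The enzymes described here make serine from a glycolytic intermediate and pass its side-chain carbon into the folate cycle. They are the products of 8 genes, PHGDH, PSAT1, PSPH, SHMT1, SHMT2, MTHFD1, MTHFD2 and MTHFD1L, which were taken by name as the rows of the deposited count table whose Ensembl ID carries these symbols. That gave 8 of 60617 rows, and all 8 were among the 18524 genes that passed a filter on low counts and were tested.

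The 12 RNA-seq libraries came from A549, an established line of human lung adenocarcinoma, and fall into 4 groups of 3. The combined group carried a YTHDF1 knockout and small interfering RNA against ARID1A, the YTHDF1 KO group the knockout alone, the siARID1A group the small interfering RNA alone, and the WT group neither. All groups were grown in the same serum-containing medium. YTHDF1 encodes a reader of N6-methyladenosine in RNA, and ARID1A a subunit of the SWI/SNF chromatin remodeller. The genotype labels call the YTHDF1 change a knockout and the sample titles a knockdown, whether these cells are clonal is not given, and WT and YTHDF1 KO cells are not described as having received any small interfering RNA. Nothing in the labels says that the titles' biological replicates came from separate cultures, so the p-values measure the spread between these libraries, which may be technical.

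Serine is made by a short chain of enzymes. PHGDH oxidises phosphoglycerate, PSAT1 adds an amino group, and PSPH removes the phosphate. SHMT1 in the cytosol and SHMT2 in mitochondria then cleave serine to glycine and load a carbon unit onto tetrahydrofolate. In mitochondria MTHFD2 oxidises that unit and MTHFD1L releases it as formate, and in the cytosol the trifunctional MTHFD1 takes formate up again, for purine and thymidylate synthesis. In lung cancer lines, PHGDH, PSAT1 and SHMT2 are known targets of the stress transcription factor ATF4, acting downstream of NRF2, and A549 cells carry an inactivating change in KEAP1, the inhibitor of NRF2.

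Library totals ran from 30220717 to 45042635 counts. The transcripts of both targeted genes were low where the labels say so. YTHDF1 stood at 35.1% of WT in the combined group and 28.2% in YTHDF1 KO, and ARID1A at 33.1% of WT in the combined group and 25.9% in siARID1A. The epithelial keratins KRT8, KRT18 and KRT7 were abundant in every group, at 912 CPM or more, where CPM are counts scaled to library totals adjusted by TMM factors. EPCAM was low in every group, between 0.784 CPM in YTHDF1 KO and 8.14 CPM in siARID1A. Of 11 markers of blood, endothelial and stromal cells, 10 were under 1 CPM in every group, and COL1A1 lay between 28.8 CPM in the combined group and 43.1 CPM in WT. WT replicate 2 stood apart from the other libraries in its share of mitochondrial counts, 4.85% against 6.81% to 8.23%. It also differed across genes in general. Chi-square per degree of freedom between its counts and those of WT replicates 1 and 3 was 56.7 and 55.1. For the other pairs of replicates within a group it was 3.47 to 14.3. Leaving out WT replicate 2 changed no call on the 8 genes in any comparison.

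In WT cells PSAT1 was the most abundant of the 8 transcripts per length, at 293 CPM per kb of annotated exons, followed by MTHFD2 at 56.4 and SHMT2 at 31.9. PSPH stood at 27.5 CPM per kb, MTHFD1 at 25.5, MTHFD1L at 21.6, PHGDH at 19.4 and SHMT1 at 7.25. The lower order depends on the length used. Over the longest APPRIS principal transcript, an alternative chosen after seeing the data, PSAT1 was still first at 293 CPM per kb, but MTHFD1 (76.2) and PHGDH (69.3) came next, and SHMT1 was again last at 21.4. In both orders the aminotransferase PSAT1 was well above PHGDH and PSPH, the enzymes before and after it in the pathway.

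Promoter windows from RefSeq (build GRCh38.p14, 250 bases before to 50 after a start) were matched for 6 of the 8 genes, not for PSPH and SHMT2, and were searched on both strands for 3 motifs of factors linked to these genes. The letters TGATGNAA of the ATF4-type element occurred in 3.62% of 35116 windows, the E-box CACGTG bound by MYC and related factors in 7.26%, and the antioxidant response element core TGACNNNGC bound by NRF2 in 13.3%. The ATF4-type letters stood in MTHFD1L alone, at chr6:150866346-150866375 on the plus strand, in 3 of its 4 overlapping or alternative windows, and an E-box lay next to them at chr6:150866320-150866349. MTHFD1 had an E-box 15 bases before its start at chr14:64388326-64388355, and MTHFD2 the antioxidant core, on the opposite strand, at chr2:74198610-74198639. Windows of PHGDH, PSAT1 and SHMT1 held none of the 3. All 8 genes were called lower in siARID1A vs WT, so genes with and without a match could not be contrasted there. The stretches of 30 bases that held a match are shown 5′ to 3′ on the gene's strand with the motif in capitals.
MTHFD1L ATF4-type element: gccgccggctcTGATGCAAtcgcgccgggc
MTHFD1L E-box: cacgcccggctcCACGTGcgcagccggccg
MTHFD1 E-box: ccagtccctaagCACGTGggttgggttgtc
MTHFD2 antioxidant core: cttccctcccgGCGCAGTCAccggcgcggt
A match describes letters in a window and no binding was measured.

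The comparison of siARID1A with WT asks how cells treated with small interfering RNA against ARID1A differ from unmodified cells. All 8 genes fell. The falls were steepest for PHGDH and PSAT1, which catalyse the first and second steps of serine synthesis, and for the mitochondrial dehydrogenase MTHFD2, each of which stood at about 30% of WT or below. The other 5 lay between 61.6% and 77.5% of WT. Of all genes tested, 45.2% were called in this comparison, 23.0% lower and 22.1% higher (edgeR quasi-likelihood test, Benjamini-Hochberg adjusted p under 0.05), against 8 of 8 of these enzymes.

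PHGDH (ENSG00000092621, chromosome 1, 119648411 to 119744226, GRCh38) stood at 58.1, 49.2 and 49.8 CPM in siARID1A replicates 1 to 3, against 180, 158 and 199 CPM in WT. Every siARID1A library was below every WT library. Its log2 fold change was -1.77 (SE 0.123, adjusted p = 4.19e-14), a level of 29.2% of WT. PSAT1 (ENSG00000135069, chromosome 9, 78297143 to 78330093) stood at 178, 179 and 163 CPM in siARID1A, against 606, 601 and 717 CPM in WT, again without overlap. Its log2 fold change was -1.89 (SE 0.094, adjusted p = 2.77e-15). PSPH (ENSG00000146733, chromosome 7, 56011051 to 56051604), the phosphatase that completes the pathway, changed less, with 53.6 to 54.7 CPM in siARID1A against 68.2 to 85.4 CPM in WT (log2 fold change -0.49, SE 0.095, adjusted p = 2.05e-05).

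MTHFD2 (ENSG00000065911, chromosome 2, 74198562 to 74217565) stood at 87.0, 90.2 and 77.0 CPM in siARID1A, against 254, 243 and 327 CPM in WT. The groups lay far apart although WT replicate 3 was well above the other WT libraries, and the log2 fold change was -1.70 (SE 0.149, adjusted p = 6.48e-13). Its partner in mitochondria MTHFD1L (ENSG00000120254, chromosome 6, 150865549 to 151101887), the formate-releasing synthetase, fell by 0.37 on the log2 scale (SE 0.070, adjusted p = 0.0001), with 78.7 to 89.9 CPM in siARID1A against 102 to 112 CPM in WT. The cytosolic MTHFD1 (ENSG00000100714, chromosome 14, 64388031 to 64463457) had 161 to 185 CPM in siARID1A against 225 to 256 CPM in WT (log2 fold change -0.46, SE 0.079, adjusted p = 6.56e-06).

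Of the serine hydroxymethyltransferases, the mitochondrial SHMT2 (ENSG00000182199, chromosome 12, 57229327 to 57234935) stood at 97.4, 97.4 and 89.9 CPM in siARID1A, against 165, 145 and 153 CPM in WT. Its log2 fold change was -0.70 (SE 0.066, adjusted p = 1.59e-08). The cytosolic SHMT1 (ENSG00000176974, chromosome 17, 18327860 to 18363563) changed less, with 36.3 to 43.6 CPM in siARID1A against 51.1 to 54.1 CPM in WT (log2 fold change -0.39, SE 0.081, adjusted p = 0.000182). For no gene of the 8 did the siARID1A and WT libraries overlap. The share of all genes tested without such overlap was not counted, here or in the other comparisons.

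**Figure D1:**
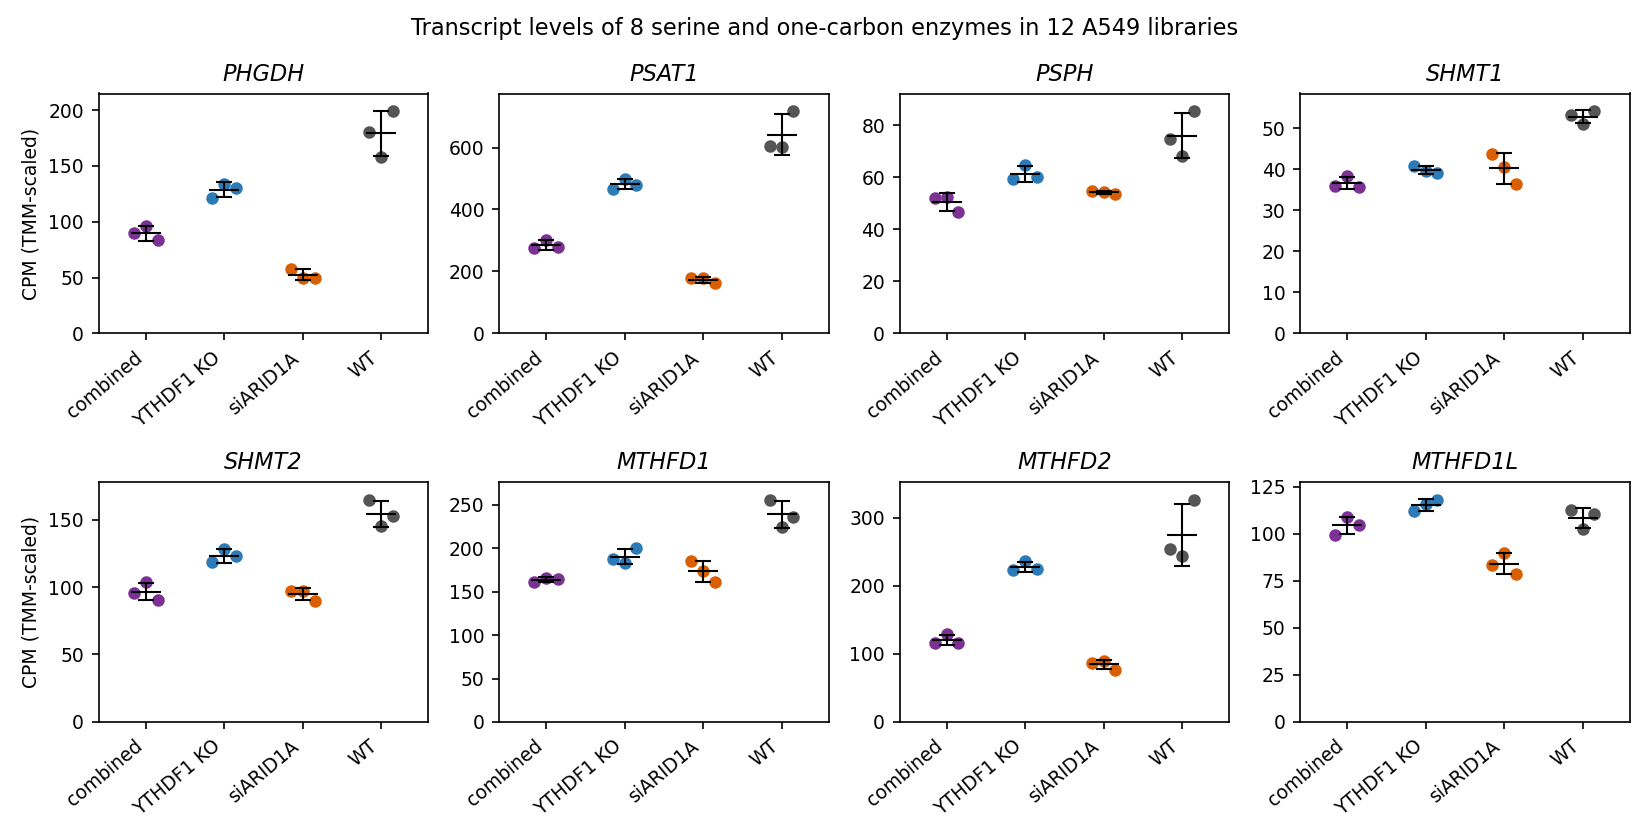
Each panel shows 1 gene, with the level in CPM on TMM-scaled library totals on a vertical axis from 0, and the combined, YTHDF1 KO, siARID1A and WT groups from left to right. Points are the 3 libraries of a group, dashes are means and bars SD. PHGDH, PSAT1 and MTHFD2 are lowest in siARID1A, between 49.2 and 58.1, 163 and 179, and 77.0 and 90.2 CPM.

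Neighbouring pathway genes were read from 7 lists, whose median log2 fold changes are set beside -0.011 for all genes tested in siARID1A vs WT. Of the 25 genes listed as other ATF4 targets, 18 fell and 0 rose, with a median of -0.65. Among the 18 were the proline synthesis enzyme PYCR1 (-1.11), the aminotransferase GPT2 (-1.105), the tRNA exporter XPOT (-1.01) and the lipoprotein receptor VLDLR (chromosome 9, -1.34). The count holds for this list, which is not complete. CTH, ATF3 and DDIT3 stood in other lists, and averaged 351%, 169% and 160% of WT in siARID1A. The DDIT3 libraries overlapped, at 11.87 to 16.88 CPM in siARID1A against 5.494 to 15.57 CPM in WT. ATF3 ran from 21.07 to 24.55 CPM in siARID1A against 9.49 to 19.78 CPM in WT. Of 13 purine synthesis genes, which use the folate-bound carbon units, 10 fell and 0 rose (median -0.42), among them the adenylosuccinate synthetase ADSS2 (-0.945) and the IMP dehydrogenase IMPDH1 (-0.943). Of 15 other folate genes tested, 8 fell and 2 rose (median -0.25), with the folate carrier SLC19A1 at -0.81 and the mitochondrial formyltetrahydrofolate dehydrogenase ALDH1L2 at -0.82.

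The lists for serine and glycine use, regulators, glycolysis and the methionine cycle went both ways with siARID1A. Of 19 genes of serine and glycine transport and use, 7 fell and 5 rose, with the serine transporter SLC1A4 (chromosome 2) at -1.52 and the glycine decarboxylase GLDC (chromosome 9) at 1.34. Of 18 regulators tested, 6 fell and 5 rose. ATF4 itself fell by 0.70 and MYC by 0.58, and the p53 inhibitor MDM2 rose by 1.59. Of 15 glycolytic genes, 6 fell and 3 rose, HK1 and ENO2 by 1.60 and 1.00, and of 11 methionine cycle genes 4 fell and 1 rose.

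The comparison of YTHDF1 KO with WT asks how knockout cells differ from unmodified ones. Of the 8 genes, 7 fell and MTHFD1L did not pass the test, where 40.4% of all genes tested were called, 20.8% lower and 19.6% higher. The falls were small and alike in size, with log2 fold changes between -0.48 and -0.27. PHGDH was lowest relative to WT, at 121, 134 and 130 CPM in YTHDF1 KO against 180, 158 and 199 CPM in WT (log2 fold change -0.48, SE 0.105, adjusted p = 4.39e-05). SHMT1 was at 40.9, 39.6 and 39.1 CPM in YTHDF1 KO, against 53.1, 51.1 and 54.1 CPM in WT (log2 fold change -0.405, SE 0.031, adjusted p = 0.000134). For all 7 the YTHDF1 KO libraries lay below every WT library, a trait whose share among all genes tested was not counted. Of 7 epithelial or A549 markers, 6 also fell and 1 rose here. Among them the aldo-keto reductase AKR1B10 averaged 346 CPM in YTHDF1 KO against 2613 CPM in WT, and KRT8 1483 CPM in YTHDF1 KO against 4796 CPM in WT. In the combined group vs WT 5 of the 7 fell and 1 rose, and in siARID1A vs WT 1 fell and 2 rose. The part of such differences between the cell stocks in the falls was not tested.

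PSPH (-0.31, adjusted p = 0.00266), SHMT2 (-0.32, adjusted p = 0.000566) and MTHFD1 (-0.33, adjusted p = 0.000427) also fell in YTHDF1 KO. MTHFD1L stood at 112, 116 and 118 CPM in YTHDF1 KO and at 112, 102 and 110.5 CPM in WT, groups that overlap (log2 fold change 0.09, SE 0.047, adjusted p = 0.316). Scaled by library totals instead of TMM it was higher in YTHDF1 KO (0.18, adjusted p = 0.0272). All log2 fold changes lie on a scale that TMM centres near 0, and with library totals the median of all genes was 0.08 in this comparison and 0.13 in the combined group vs WT.

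For PSAT1 and MTHFD2 the fall with YTHDF1 KO was close to or smaller than that of their chromosomes. PSAT1 lay at -0.41 (SE 0.088, adjusted p = 8.5e-05), with 467 to 499 CPM in YTHDF1 KO against 601 to 717 CPM in WT, and the median of 711 other genes of chromosome 9 was -0.36. MTHFD2 lay at -0.27 (SE 0.135, adjusted p = 0.0194), with 223 to 237 CPM in YTHDF1 KO against 243 to 327 CPM in WT, and the median of 1230 other genes of chromosome 2 was -0.41. Scaled to the genes of its own chromosome, PSAT1 stood at -0.05 (adjusted p = 0.655) and MTHFD2 at 0.15 (adjusted p = 0.186), and neither passed. MTHFD2 also lost its call with library totals (-0.17, adjusted p = 0.108) and without WT replicate 3 (-0.12, adjusted p = 0.226), YTHDF1 KO replicate 1 (-0.25, adjusted p = 0.069) or YTHDF1 KO replicate 3 (-0.25, adjusted p = 0.0682).

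The same scaling left the changes with siARID1A in place. In siARID1A vs WT, chromosome 9 had a median of -0.40 and chromosome 2 of 0.007, and PSAT1 and MTHFD2 stood at -1.48 (adjusted p = 3.42e-13) and -1.70 (adjusted p = 1.72e-13) when scaled to their own chromosome. Of the 50 nearest genes tested, 25 on each side, a set added after seeing the data, 0 lay below PSAT1 and 0 below MTHFD2 in that comparison. In YTHDF1 KO vs WT 19 of 50 lay below PSAT1 and 26 of 50 below MTHFD2. The other 6 genes lie on chromosomes 1, 6, 7, 12, 14 and 17, and under this scaling their calls against WT were the same.

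**Figure D2:**
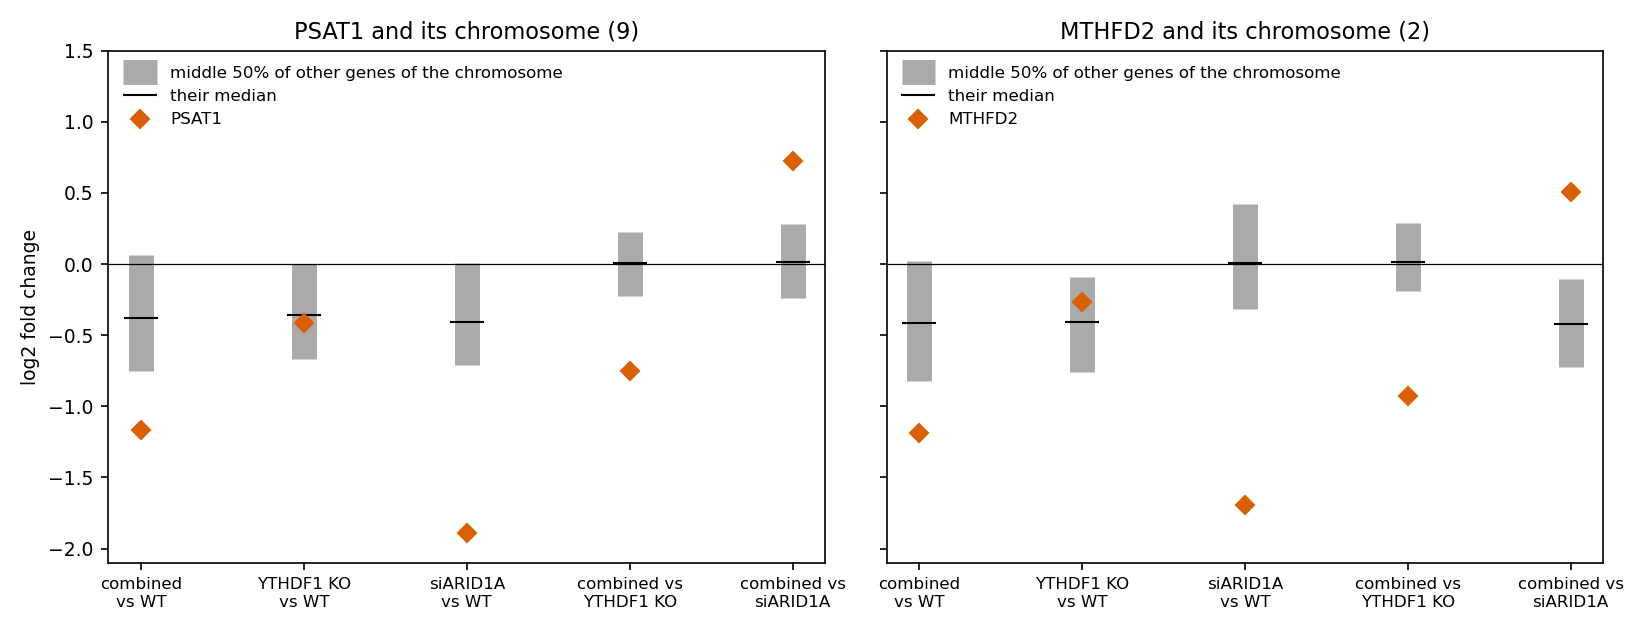
The log2 fold change of PSAT1 (left) and MTHFD2 (right) in 5 comparisons is drawn as a diamond beside the middle 50% (grey bar) and the median (dash) of the other tested genes of the same chromosome, 9 and 2. Both diamonds lie inside the grey bar in YTHDF1 KO vs WT and far below it in siARID1A vs WT, at -1.89 and -1.70.

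In YTHDF1 KO vs WT the median of all genes tested was -0.012. Of 25 other ATF4 target genes 11 fell and 4 rose (median -0.20), with the amino acid transporter subunits SLC7A5 and SLC3A2 at -1.18 and -0.98 and the transcription factor ATF5 at 1.065. ATF4 lay at -0.05 and did not pass (adjusted p = 0.673), and MYC fell by 0.60. Of 13 purine synthesis genes 5 fell and 2 rose, with ATIC (chromosome 2) at -0.62 and IMPDH1 at -0.67, and without YTHDF1 KO replicate 1 the counts were 3 lower and 1 higher. Of 15 glycolytic genes 8 fell and 3 rose, among them GPI (-0.78) and PGK1 (-0.46), the kinase that makes phosphoglycerate. Of 15 other folate genes 3 fell and 3 rose, with the polyglutamating enzyme FPGS (chromosome 9) at -0.79. Of 19 genes of serine and glycine use 5 fell and 4 rose, with the neutral amino acid transporter SLC38A2 at 1.01 and the mitochondrial serine carrier family member SFXN3 at -0.69. Of 18 regulators 7 were lower and 1 higher, and of 11 methionine cycle genes 2 and 2.

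The combined group was compared with WT to see both changes together. Of the 8 genes, 7 fell and MTHFD1L did not pass, where 51.5% of all genes tested were called and 25.9% were called lower. PSAT1 stood at 276, 303 and 278 CPM in the combined group, against 606, 601 and 717 CPM in WT (log2 fold change -1.17, SE 0.094, adjusted p = 3.39e-12). MTHFD2 stood at 116, 129 and 116 CPM in the combined group, against 254, 243 and 327 CPM in WT (log2 fold change -1.19, SE 0.142, adjusted p = 9.36e-11). PHGDH stood at 89.5, 96.3 and 83.2 CPM in the combined group, against 180, 158 and 199 CPM in WT (log2 fold change -0.997, SE 0.113, adjusted p = 3.15e-10). These 3 were at 44.5%, 43.8% and 50.1% of WT, above the 27.0%, 30.8% and 29.2% that siARID1A alone had.

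The other falls in the combined group were smaller. SHMT2 lay at 62.6% of WT (adjusted p = 1.54e-08), PSPH at 66.4% (adjusted p = 9.3e-07), MTHFD1 at 68.6% (adjusted p = 4.19e-07) and SHMT1 at 69.5% (adjusted p = 3.34e-06). Each lay without overlap with WT, and the share of all genes tested that did so was not counted. MTHFD1L stood at 99.6 to 109 CPM in the combined group and at 102 to 112 CPM in WT (adjusted p = 0.541). Scaled to their own chromosomes, whose medians were -0.38 and -0.42, PSAT1 and MTHFD2 stood at -0.77 (adjusted p = 1.42e-08) and -0.80 (adjusted p = 3.21e-08).

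**Figure D3:**
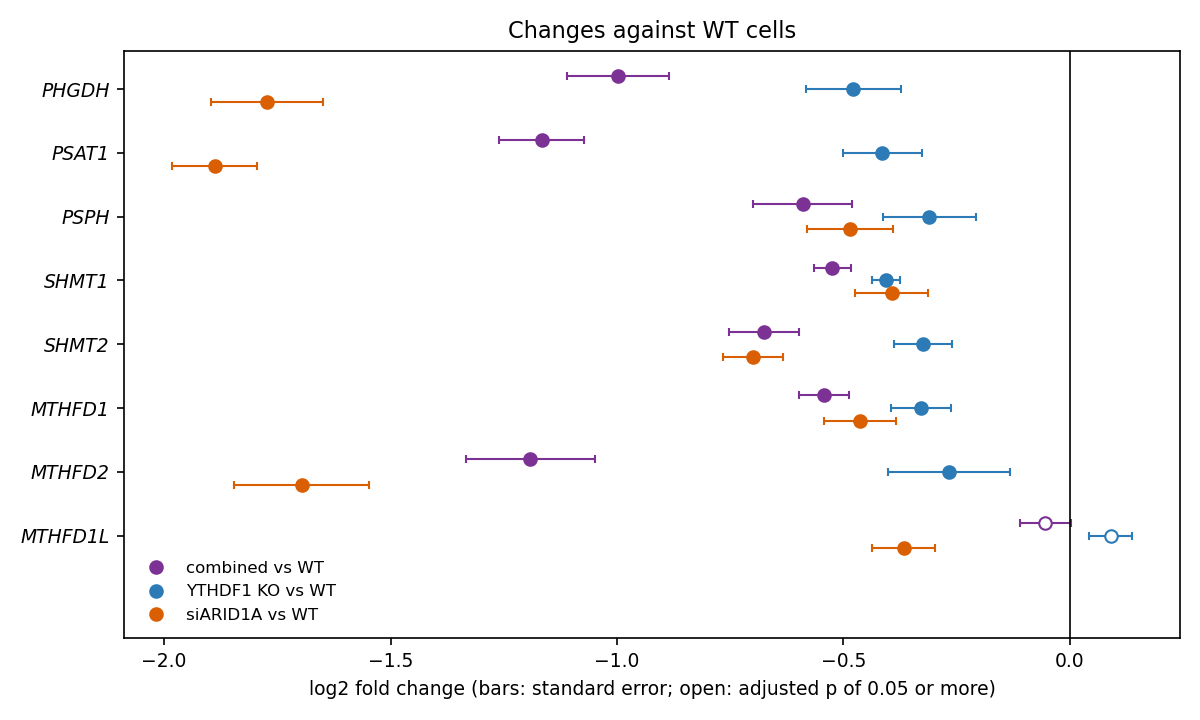
Log2 fold changes of the 8 genes on the horizontal axis for the combined group, YTHDF1 KO and siARID1A, each against WT (top to bottom within a gene), with bars of 1 standard error. Open circles mark an adjusted p of 0.05 or more. PHGDH, PSAT1 and MTHFD2 reach -1.77, -1.89 and -1.70 with siARID1A, and the 2 open circles are MTHFD1L.

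Of the lists in the combined group vs WT, 18 of 25 other ATF4 targets were lower and 2 higher (median -0.41, beside -0.005 for all genes tested), as were 9 and 0 of 13 purine synthesis genes (median -0.40). IMPDH1 lay at -1.40, the phosphoribosylformylglycinamidine synthase PFAS at -0.65 and JDP2, a repressor of AP-1, at -1.58. Of 15 glycolytic genes 9 were lower and 3 higher, of 15 other folate genes 5 and 1, and of 18 regulators 7 and 2. Of 19 genes of serine and glycine use 7 were lower and 6 higher, and of 11 methionine cycle genes 5 and 4, with the nicotinamide methyltransferase NNMT at 1.70.

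**Figure D4:**
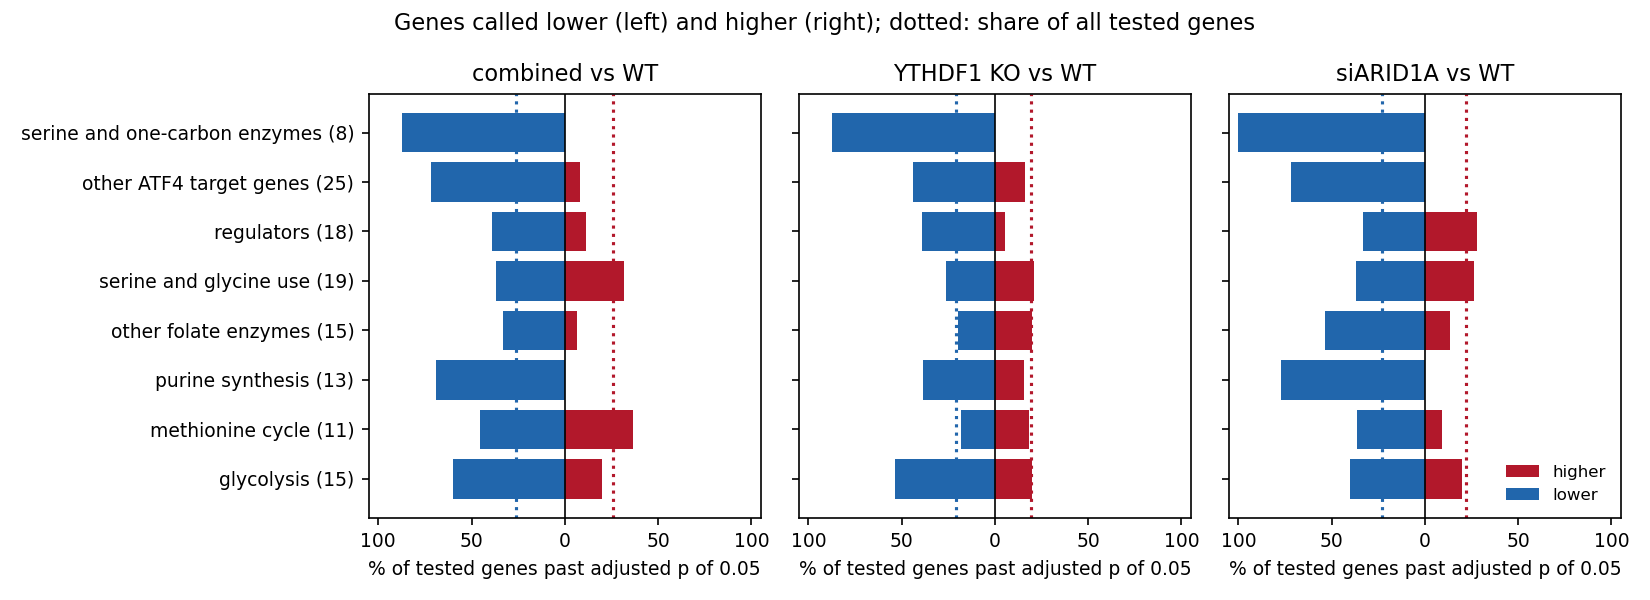
For each gene list (number of genes tested in brackets), bars give the percentage called lower, to the left, and higher, to the right, at an adjusted p under 0.05 in the combined group, YTHDF1 KO and siARID1A, each against WT. Dotted lines mark the share of all tested genes called, 25.9%, 20.8% and 23.0% lower. The serine and one-carbon enzymes have no bar to the right.

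Within YTHDF1 knockout cells, most of these transcripts were again lower with siARID1A. In the combined group vs YTHDF1 KO, 6 of the 8 fell, where 23.4% of all genes tested were called and 10.9% were called lower. MTHFD2 lay at 116, 129 and 116 CPM in the combined group, against 223, 237 and 225 CPM in YTHDF1 KO (log2 fold change -0.92, SE 0.059, adjusted p = 5.42e-08). PSAT1 lay at 276, 303 and 278 CPM in the combined group, against 467, 499 and 478 CPM in YTHDF1 KO (log2 fold change -0.75, SE 0.051, adjusted p = 6.48e-08). PHGDH lay at 89.5, 96.3 and 83.2 CPM in the combined group, against 121, 134 and 130 CPM in YTHDF1 KO (log2 fold change -0.52, SE 0.075, adjusted p = 5.03e-05). The chromosome 9 and chromosome 2 medians were 0.006 and 0.014 here.

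SHMT2 fell by 0.35 (adjusted p = 0.000601), PSPH by 0.28 (adjusted p = 0.0118) and MTHFD1 by 0.21 (adjusted p = 0.0265) in the same comparison. PSPH and MTHFD1 lost the call in some alternatives with fold changes of much the same size. PSPH did not pass without YTHDF1 KO replicate 2 (-0.24, adjusted p = 0.0715) or combined replicate 3 (-0.23, adjusted p = 0.0849). MTHFD1 did not pass with library totals (-0.17, adjusted p = 0.0664), without YTHDF1 KO replicates 1 (-0.23, adjusted p = 0.0622) or 3 (-0.18, adjusted p = 0.147), or without combined replicates 1 (-0.20, adjusted p = 0.0871), 2 (-0.225, adjusted p = 0.0557) or 3 (-0.22, adjusted p = 0.0717). SHMT1 (-0.12, adjusted p = 0.301) and MTHFD1L (-0.14, adjusted p = 0.138) did not pass. Of 25 other ATF4 targets 12 were lower and 3 higher, with PYCR1 at -0.81 and XPOT at -0.43. Of 13 purine synthesis genes 10 were lower and 0 higher, and 6 were lower without YTHDF1 KO replicate 3 or without combined replicate 1.

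Within siARID1A cells PHGDH, PSAT1 and MTHFD2, which were called lower with the knockout in WT cells, were higher with it. Scaled to their own chromosomes, PSAT1 (-0.05) and MTHFD2 (0.15) did not pass in YTHDF1 KO vs WT, as given above. In the combined group vs siARID1A, 4 of the 8 rose and 0 fell, where 35.4% of all genes tested were called and 18.2% were called higher. PHGDH lay at 89.5, 96.3 and 83.2 CPM in the combined group, against 58.1, 49.2 and 49.8 CPM in siARID1A (log2 fold change 0.78, SE 0.098, adjusted p = 6.83e-08). PSAT1 lay at 276, 303 and 278 CPM in the combined group, against 178, 179 and 163 CPM in siARID1A (log2 fold change 0.72, SE 0.062, adjusted p = 3.8e-08). MTHFD2 rose by 0.51 (SE 0.086, adjusted p = 9.24e-05) and MTHFD1L by 0.31 (SE 0.067, adjusted p = 0.000728). The libraries of the 2 groups did not overlap for these 4, nor for PSPH, which was lower in the combined group and did not pass. The share of all genes tested without such overlap was not counted.

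MTHFD2 rose there although the median of chromosome 2 was -0.42. PSPH (-0.10, adjusted p = 0.345), SHMT1 (-0.13, adjusted p = 0.207), SHMT2 (0.025, adjusted p = 0.827) and MTHFD1 (-0.08, adjusted p = 0.407) did not pass. The remaining ARID1A transcript was also somewhat higher in the combined group, at 54.2 ± 6.50 CPM against 42.5 ± 2.12 CPM in siARID1A (SD, n = 3; log2 fold change 0.35, adjusted p = 0.00214). Its part in the rises was not tested. Other ATF4 targets rose in 10 of 25 and fell in 6, with the tryptophanyl-tRNA synthetase WARS1 at 1.23, and ATF4 rose by 0.34 (adjusted p = 0.00346).

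The interaction, the change with siARID1A in YTHDF1 KO cells minus that in WT cells, tests whether the response to the small interfering RNA differed with background. It was positive and past the threshold for 4 of the 8 genes and negative for 0, where 17.1% of all genes tested were called, 8.87% in the positive and 8.22% in the negative direction. For PHGDH the change was -0.52 in YTHDF1 KO cells and -1.77 in WT cells (difference 1.25, SE 0.144, adjusted p = 4.63e-08). For PSAT1 it was -0.75 in YTHDF1 KO cells and -1.89 in WT cells (difference 1.14, SE 0.107, adjusted p = 4.63e-08), or 0.77 when scaled to chromosome 9 (adjusted p = 2.62e-05). For MTHFD2 it was -0.92 in YTHDF1 KO cells and -1.70 in WT cells (difference 0.77, SE 0.160, adjusted p = 0.00012). These 3 differences kept their call in every alternative.

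For SHMT2 the change was -0.35 in YTHDF1 KO cells and -0.70 in WT cells (difference 0.35, SE 0.093, adjusted p = 0.016). It did not pass without YTHDF1 KO replicate 1 (0.32, adjusted p = 0.0556) or combined replicate 2 (0.30, adjusted p = 0.0661). PSPH (0.21, adjusted p = 0.235), SHMT1 (0.27, adjusted p = 0.0914), MTHFD1 (0.25, adjusted p = 0.0876) and MTHFD1L (0.22, adjusted p = 0.12) had positive differences that did not pass. SHMT1 passed when scaled to its own chromosome (0.36, adjusted p = 0.0214) and without siARID1A replicate 1 (0.34, adjusted p = 0.0488). Other ATF4 targets were called in the positive direction in 11 of 25 and the negative in 1 (median 0.33, beside 0.024 for all genes tested), and ATF4 had a difference of 0.39 (adjusted p = 0.0296), which did not pass in 5 of the 12 fits that left out 1 library (0.25 to 0.45) or when scaled to its own chromosome (0.34, adjusted p = 0.0962).

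**Figure D5:**
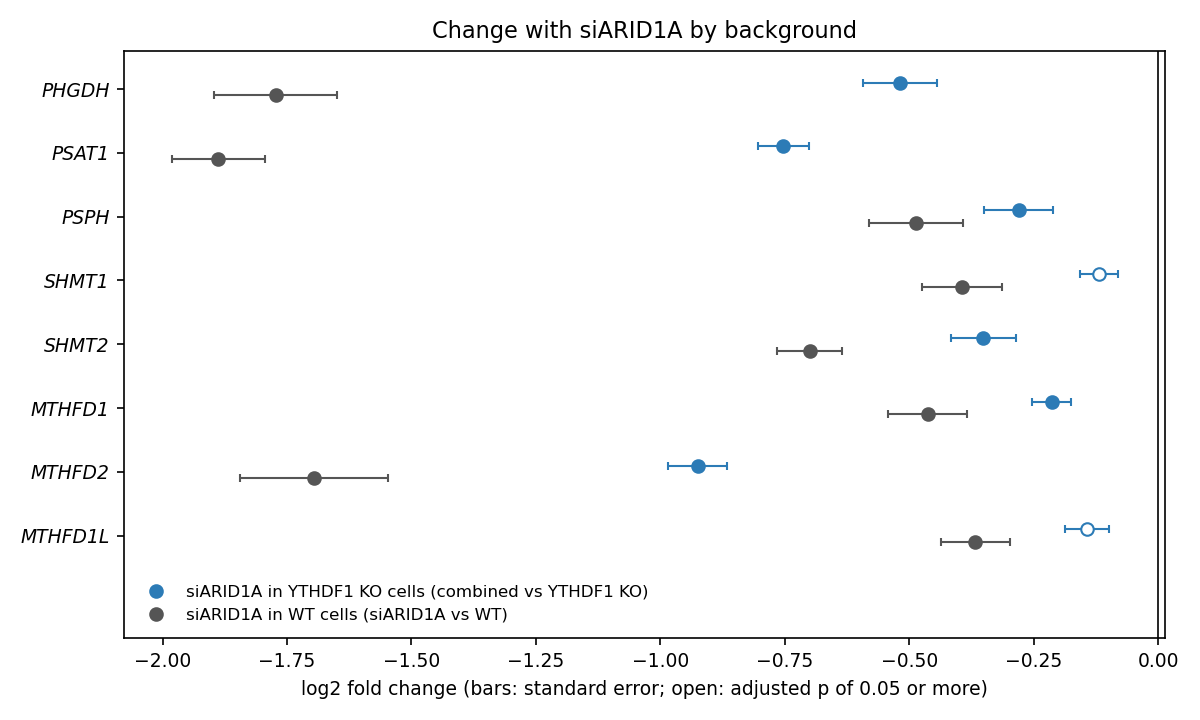
Log2 fold change with siARID1A of each gene in YTHDF1 KO cells (combined vs YTHDF1 KO, upper point of a pair) and in WT cells (siARID1A vs WT, lower point), with bars of 1 standard error and open circles for an adjusted p of 0.05 or more. The pairs are farthest apart for PHGDH (-0.52 and -1.77) and PSAT1 (-0.75 and -1.89).

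Ordering each gene's 4 levels gave 3 patterns. PHGDH, PSAT1 and MTHFD2 ran from siARID1A, the lowest, through the combined group and YTHDF1 KO to WT, and each neighbouring pair in that order differed by the test (the weakest was MTHFD2 in YTHDF1 KO vs WT, as given above). With own-chromosome scaling PSAT1 and MTHFD2 did not pass in YTHDF1 KO vs WT. SHMT2, PSPH, MTHFD1 and SHMT1 had their highest level in WT, and YTHDF1 KO was also above the combined group for SHMT2, PSPH and MTHFD1. Between YTHDF1 KO and siARID1A, 45.2% of all genes tested were called, 22.4% higher and 22.8% lower, and 5 of the 8 enzymes were higher and 0 lower. Among these 4 genes, YTHDF1 KO was above siARID1A for SHMT2 (0.38, adjusted p = 0.0001), and did not pass for PSPH (0.18, adjusted p = 0.0767), MTHFD1 (0.13, adjusted p = 0.125) or SHMT1 (-0.01, adjusted p = 0.918). MTHFD1L was lowest in siARID1A, and neither the combined group nor YTHDF1 KO differed from WT by the test.

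The balance between mitochondrial and cytosolic enzymes shifted most where MTHFD2 was involved. Ratios were taken within each library per kb of annotated exons, a length that sets the height of a ratio but not its change between groups. MTHFD2 to MTHFD1 was 1.35 to 1.49 in the combined group, 2.16 to 2.49 in YTHDF1 KO and 0.904 to 0.999 in siARID1A, against 1.91 to 2.66 in WT, so that the siARID1A and combined libraries lay apart from the WT range and YTHDF1 KO lay inside it. SHMT2 to SHMT1 was 3.81 to 4.06 in the combined group, 4.36 to 4.88 in YTHDF1 KO and 3.36 to 3.72 in siARID1A, against 4.25 to 4.67 in WT. MTHFD1L to MTHFD1 was above WT in the groups with the knockout, at 1.15 to 1.22 in the combined group and 1.10 to 1.18 in YTHDF1 KO, and overlapped WT in siARID1A, at 0.843 to 0.966 against 0.820 to 0.874 in WT. These ratios are descriptions with no test.

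Likeness between profiles was measured as the root mean square difference of log2 CPM over the 12 libraries, each gene centred on its own mean. PSAT1 and MTHFD2 differed by 0.103 and PHGDH and PSAT1 by 0.115, against 0.419 for PHGDH and SHMT2. The closest pair was SHMT1 and MTHFD1, at 0.0738. Among 9506 other genes of at least 10 CPM, the nearest to PHGDH were the chloride channel protein CLIC4 (0.159) and the serine transporter SLC1A4 (0.170), and those to PSAT1 were INIP (chromosome 9, 0.109) and the branched-chain aminotransferase BCAT1 (chromosome 12, 0.112). SLC1A4 (0.111) and INIP (0.126) were also nearest to MTHFD2. SLC1A4 lies on chromosome 2, as MTHFD2 does, and INIP on chromosome 9, as PSAT1 does. The profiles were not scaled to their chromosomes, and the part of chromosome shifts in the likeness was not tested. BCAT1 averaged 46 CPM in the combined group, 89.6 CPM in YTHDF1 KO and 27.4 CPM in siARID1A, against 114 CPM in WT.

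The genes that followed the other members were of other kinds. Nearest to PSPH were the RNA-binding protein PCBP2 (0.0645) and the purine salvage enzyme HPRT1 (0.0691), to SHMT1 CPNE1 (0.0598) and the translation factor EIF4G2 (0.0619), and to SHMT2 SLC2A4RG (0.0618) and C19orf48P (0.0687). Nearest to MTHFD1 were the mismatch repair protein MSH6 (chromosome 2, 0.0541) and the mitochondrial protease LONP1 (0.0556), and to MTHFD1L the SUMO-activating subunit UBA2 (0.0414) and FBXO21 (0.0546). These distances carry no test, and they are bound to be smaller for genes that vary little, since the SD of log2 CPM over the libraries was 0.758 for PSAT1 and 0.190 for MTHFD1L.

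Some of these genes share exonic bases with other genes or have pseudogene copies. Exons of MTHFD2 share 27.2% of their bases with SLC4A5 on the opposite strand, which had 0.893% as many counts as MTHFD2, and ZBTB25, which shares 1.90% of the exonic bases of MTHFD1, had 12.2% as many counts as MTHFD1. Without the strand setting of the counting, reads from such stretches cannot be assigned with certainty. Named pseudogene copies of PSAT1, PSPH, SHMT1, MTHFD1 and MTHFD2 each had at most 0.0476% as many counts as their parent gene. Low counts in an overlapping gene or a copy do not show how many reads of the enzyme's own gene went uncounted.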

How the data were processed

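The authors deposited 1 table of raw read counts per Ensembl gene, with 1 column for each of 12 libraries. Per the submitters' processing notes, the tools were STAR (2.7.0d), featureCounts (2.0.1), Trim Galore (0.6.6) and edgeR (3.32.1), with the GRCh38 build, and per the labels' protocols libraries were made with a stranded kit. The annotation release and strand setting are not given in the sources used here. Gene positions are those of GENCODE 29.

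The deposited counts went through edgeR 4.0.16 (under R 4.3.3): filterByExpr, TMM factors (0.912 to 1.06), 1 fit of all 12 libraries with 1 coefficient per group, robust quasi-likelihood F tests, two-sided, and Benjamini-Hochberg adjustment over 18524 genes per comparison with a threshold of 0.05. The common dispersion was 0.0089. Standard errors come from replicate SDs of log2 CPM with a prior count of 2. Levels are CPM on TMM-scaled totals. The fit was tested on simulated counts with known changes. Counting error is covered only as part of the replicate spread.

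Alternatives were other scalings, no filter, DESeq2 1.42.0, fewer groups, a replicate block, own-chromosome scaling and leaving out each library. The genes, lists, tests and the rule for named genes (per list and comparison, up to 4 called genes with the smallest p; per enzyme, the 2 nearest profiles) were chosen with earlier results of these data known. No protein sequences were used here. Values of 2 genes of the lists are not reported here.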

Additional observations from a re-analysis of the deposited data

Results flagged for a closer look

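Of the 8 enzymes, 4 responded to siARID1A differently in YTHDF1 KO cells and in WT cells by the interaction test. The difference on the log2 scale (change in YTHDF1 KO cells minus change in WT cells) was 1.25 for PHGDH, 1.14 for PSAT1, 0.77 for MTHFD2 and 0.35 for SHMT2, with adjusted p of 4.63e-08, 4.63e-08, 0.00012 and 0.016. In each case all libraries of the combined group lay below those of YTHDF1 KO, and all siARID1A libraries below those of WT. The same held for all 8 enzymes, so it does not set these 4 apart. The share of all genes tested without such overlap was not counted. The ARID1A transcript showed a difference in the same direction (0.38, adjusted p = 0.0278, not passed in 8 of the 12 fits that left out 1 library, 0.302 to 0.48), with log2 fold changes of -1.565 in YTHDF1 KO cells and -1.95 in WT cells, and its part in these differences was not tested. The YTHDF1 transcript was higher in the combined group than in YTHDF1 KO (log2 fold change 0.315, adjusted p = 0.00323), and its part was not tested either. No control small interfering RNA is named, so silencing of ARID1A and delivery of a small interfering RNA cannot be told apart. The other tested genes of chromosome 9, where PSAT1 lies, had a median log2 change from WT of -0.40 with siARID1A alone. With the knockout alone it was -0.36, in the combined group -0.38, and for the interaction 0.39. For chromosome 2, where MTHFD2 lies, the median was 0.007 with siARID1A alone and 0.013 for the interaction. The part of differences between cell stocks in the changes with siARID1A and in the interaction was not tested.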

How the results depend on the processing

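No alternative moved the total of called enzymes, or of called genes, in a comparison by more than 1.5 times, but genes called lower in the combined group vs YTHDF1 KO numbered 1303 without combined replicate 1, against 2016. Counts of some pathway lists moved further, as given with them. Of the fold changes of the 8 enzymes in all alternatives together, 1025 kept direction and side of the threshold, 15 lost the call, 8 gained it and 8 changed sign. The calls gained included PSPH in YTHDF1 KO vs siARID1A, with library totals, only those groups in the fit or WT replicate 3 left out (0.17 to 0.21), and MTHFD1L in the combined group vs YTHDF1 KO with only those groups in the fit (-0.15). The sign changes were MTHFD2 in YTHDF1 KO vs WT with own-chromosome scaling (0.15) and fold changes near 0 that passed in no fit. Those were MTHFD1L in the combined group vs WT with library totals (0.084), SHMT2 in the combined group vs siARID1A with own-chromosome scaling (-0.048) and with 1 library left out (-0.026 to 0.069), and SHMT1 in YTHDF1 KO vs siARID1A with library totals (0.021) and with 1 library left out (-0.079 to 0.053). ATF4 in YTHDF1 KO vs WT, which did not pass, turned to 0.043 with library totals, 0.033 with own-chromosome scaling, and ran from -0.127 to 0.089 with 1 library left out. Leaving out 1 library at a time gave 8 called enzymes in siARID1A vs WT, 6 to 7 in YTHDF1 KO vs WT, 7 in the combined group vs WT, 4 to 6 in the combined group vs YTHDF1 KO, 4 in the combined group vs siARID1A and 3 to 5 for the interaction.

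Library totals moved the share of called genes that were higher to 61.2% in YTHDF1 KO vs WT (48.5% with TMM), 63.4% in the combined group vs WT (49.7%), 63.5% in the combined group vs YTHDF1 KO (53.5%) and 62.2% in the combined group vs siARID1A (51.3%). Same-numbered libraries did not deviate together (correlations -0.392 to 0.252 over 18 pairs, 4 above 0.1). No pairing by replicate number was thus seen, though 3 libraries a group cannot exclude it. With the replicate block, 8, 7, 7, 6, 4 and 4 enzymes were called in the same 6 comparisons, as without it, and 2979 genes for the interaction, against 3166.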

Other observations

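Transsulfuration, which draws on serine, split. CBS, which condenses serine with homocysteine, averaged 4.49 CPM in the combined group, 8.59 CPM in YTHDF1 KO and 2.07 CPM in siARID1A, against 7.60 CPM in WT, and fell by 1.87 on the log2 scale in siARID1A vs WT (adjusted p = 3.98e-10). CTH, the enzyme after it, averaged 22.7 CPM in the combined group, 2.77 CPM in YTHDF1 KO and 10.8 CPM in siARID1A, against 3.08 CPM in WT. It rose by 1.81 in siARID1A vs WT (adjusted p = 0.00028) and by 3.03 in the combined group vs YTHDF1 KO (adjusted p = 1.03e-05), though the siARID1A libraries spread from 6.70 to 17.1 CPM.

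Of the other ATF4 targets, 3 outside the rule for named genes were chosen after their values were seen. Asparagine synthetase ASNS was low throughout, at 2.48 CPM in the combined group, 4.17 CPM in YTHDF1 KO and 1.39 CPM in siARID1A, against 6.11 CPM in WT, and fell by 2.13 in siARID1A vs WT (adjusted p = 2.59e-07). The secreted glycoprotein STC2 fell by 1.98 with siARID1A in WT cells (adjusted p = 1.15e-05) and by 1.19 in YTHDF1 KO cells (adjusted p = 0.00124), and the difference of 0.79 did not pass (adjusted p = 0.0794), though it did without WT replicate 1 (0.935, adjusted p = 0.0197) or WT replicate 3 (0.48, adjusted p = 0.0088). The glutathione-degrading enzyme CHAC1 fell by 2.01 in siARID1A vs WT (adjusted p = 0.0112, or 0.066 with only those groups in the fit), with 3.54 to 5.62 CPM in siARID1A and 9.66 to 35.5 CPM in WT, and stood at -1.15 without WT replicate 3.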
